A study of Mus musculus with 18 samples.

Results

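The response to low oxygen was measured in brain endothelial cells that had lost Pdcd10, in 10 of the 18 RNA-seq libraries of the series. The members were taken from the library labels: 5 hypoxia KO libraries (replicates 1 to 5) were set against 5 normoxia KO libraries (replicates 1, 2, 4, 5 and 6). The KO mice carried Slco1c1-iCreERT2, Pdcd10 fl/fl and Aldh1l1-EGFP/Rpl10a. Hypoxia KO mice were kept in 12% O2 for 7 days, and normoxia KO mice were kept in 21% O2. The other 8 libraries came from flox mice, Pdcd10 fl/fl with Aldh1l1-EGFP/Rpl10a and no Cre, in 4 hypoxia and 4 normoxia libraries, and are used here for the same oxygen contrast with Pdcd10 intact. The design text says that mice received 50 µg of 4-hydroxytamoxifen into the stomach on postnatal day 1, without limiting this to Cre carriers, and that littermates with Cre but no injection also served as controls. It does not give the injection library by library. All groups shared the floxed Pdcd10 alleles, the Aldh1l1-EGFP/Rpl10a transgene and an age of postnatal day 57. The Cre is tamoxifen-inducible and driven by Slco1c1 sequence, which is active in brain endothelium and also in choroid plexus epithelium. Choroid plexus and ependyma markers summed to 147 to 903 CPM (counts scaled to a common library total) in hypoxia KO and 125 to 1007 CPM in normoxia KO. No label says whether each library is 1 animal, 1 culture or a pool, so p-values measure the spread between these libraries.

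The protein made from Pdcd10, also called CCM3, is a scaffold. Endothelium without it forms cerebral cavernous malformations, clusters of dilated and leaky brain vessels. In low oxygen, cells stop hydroxylating the HIF alpha subunits, and the stabilised HIF dimers bind target genes of glycolysis, erythropoiesis and vessel growth. Brain capillaries answer sustained mild hypoxia by endothelial division, by sprouting under VEGF and angiopoietin signals, and by laying down the basement membrane of collagen IV, laminin, nidogen and perlecan on which the endothelium rests.

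Library totals were 17931197 to 23340893 counts in hypoxia KO and 20621194 to 31193333 counts in normoxia KO. Pdcd10 (ENSMUSG00000027835), the targeted gene, had 16.6 to 23.8 CPM in the hypoxia KO libraries and 16.1 to 19.2 CPM in the normoxia KO libraries, against 31 to 66.5 CPM over the 8 flox libraries, with no overlap between genotypes. Its level did not pass the test between oxygen conditions in KO cells (log2 fold change 0.19 ± 0.13, SE, adjusted p = 0.539, edgeR's quasi-likelihood test). A gene model, Gm14253, shares 16.4% of the 31-base words of Pdcd10 transcripts, so part of its count may be misplaced. The 12 endothelial markers summed to 15180 to 18414 CPM in hypoxia KO libraries and 14929 to 17509 CPM in normoxia KO libraries, and none of the 12 passed the test (edgeR, 0 of 12 also at an unadjusted p under 0.05 and by DESeq2; median log2 fold change 0.04). Some libraries stood apart. Hypoxia KO 1, normoxia KO 4 and normoxia KO 6 held 15826 to 17873 CPM of the mitochondrial ribosomal RNA mt-Rnr2 and 492 to 770 CPM of Fos, where the other 7 KO libraries held 679 to 1689 CPM of mt-Rnr2 and 4161 to 5413 CPM of Fos, an immediate early gene. Normoxia KO 4 also held neuronal RNA, 1684 CPM summed over the neuron markers against 39.4 to 96.9 CPM in the other KO libraries. Xist was 626 to 859 CPM with Ddx3y under 1 CPM in hypoxia KO 1, 2, 3 and 5 and in normoxia KO 5 and 6. Ddx3y, a Y-linked gene, was 131 to 163 CPM with Xist under 1 CPM in hypoxia KO 4 and normoxia KO 1 and 2. Normoxia KO 4 held both transcripts, 301 CPM of Xist and 9.55 CPM of Ddx3y.

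Low oxygen changed 260 of 17531 tested genes in Pdcd10-deleted endothelium at an adjusted p under 0.05 (edgeR's quasi-likelihood test with Benjamini-Hochberg adjustment), which is 1.48% of the genes tested. Of these, 125 genes (0.713%) were higher and 135 genes (0.77%) were lower in hypoxia KO than in normoxia KO. At least a 2-fold difference was reached by 36 of the higher genes (0.205%) and 65 of the lower genes (0.371%). At an unadjusted p under 0.05 there were 2492 genes (14.2%). DESeq2 called 617 of the 16774 genes it tested, 355 higher and 262 lower. These all-gene counts stand beside the unadjusted and DESeq2 counts of each list below. The median log2 fold change of all genes tested was -0.03. In 672 genes (3.83%) the 5 hypoxia KO values did not overlap the 5 normoxia KO values, 297 genes (1.69%) lying above and 375 genes (2.14%) below. The count of calls depended on single libraries. It was 53 without hypoxia KO 2, 102 without hypoxia KO 5, 106 without normoxia KO 6, 127 without normoxia KO 5, 143 without normoxia KO 4, 147 without normoxia KO 1, 403 without normoxia flox 4 and 523 without hypoxia KO 1. A group of 51 genes, 26 higher and 25 lower, kept the call without each of the 10 KO libraries in turn. Among the 7 KO libraries with little mt-Rnr2, 4 hypoxia KO against 3 normoxia KO, 422 genes were called and 180 of the 260 genes were among them.

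**Figure D1:**
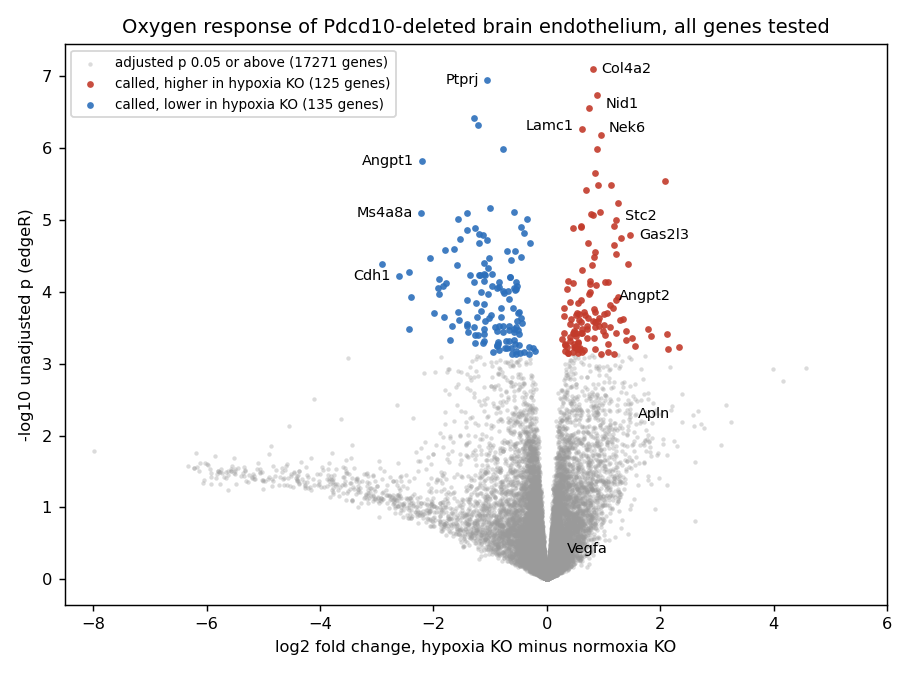
Log2 fold change (hypoxia KO minus normoxia KO, horizontal axis) and -log10 of the unadjusted p from edgeR (vertical axis) for each of the 17531 genes tested. Red points are the 125 genes called higher in hypoxia KO, blue points the 135 genes called lower, and grey points the genes that did not pass; Col4a2, at 0.80, has the smallest p, and Vegfa and Apln lie among the grey points.

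Of the 31 gene lists described, which were chosen with earlier results of these data known, basement membrane and matrix had the most calls. Of its 22 tested genes, 11 rose in hypoxia KO endothelium (50%, against 0.713% of all genes tested) and 2 fell (9.09%, against 0.77%). The list's median log2 fold change was 0.52, beside -0.03 for all genes tested. For 13 of the 22 genes, all 5 hypoxia KO values lay above all 5 normoxia KO values, against 1.69% of all genes tested. The genes that rose encode the collagen IV chains Col4a1 and Col4a2, the laminin chains Lama4, Lamb1 and Lamc1, the linkers Nid1 and Nid2, and the heparan sulfate proteoglycan perlecan (Hspg2). The others that rose encode the matricellular proteins Sparc and Sparcl1 and the laminin receptor subunit Itga6.

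Col4a1 (ENSMUSG00000031502) and Col4a2 (ENSMUSG00000031503), which encode the chains of the collagen IV network, are neighbours transcribed in opposite directions. Their RefSeq promoter windows are shown because the pair rose together. Each window runs from 250 bases before to 50 bases after the start site on build GRCm38.p6, 5′ to 3′ on the gene's own strand, at chr8:11312777-11313076 on the minus strand for Col4a1 and chr8:11312555-11312854 on the plus strand for Col4a2. The start sites, 11312826 for Col4a1 and 11312805 for Col4a2, are 21 bases apart, and the first bases of the 2 transcripts overlap between them. Capitals mark the 78 bases that both windows hold, on opposite strands.
Col4a1: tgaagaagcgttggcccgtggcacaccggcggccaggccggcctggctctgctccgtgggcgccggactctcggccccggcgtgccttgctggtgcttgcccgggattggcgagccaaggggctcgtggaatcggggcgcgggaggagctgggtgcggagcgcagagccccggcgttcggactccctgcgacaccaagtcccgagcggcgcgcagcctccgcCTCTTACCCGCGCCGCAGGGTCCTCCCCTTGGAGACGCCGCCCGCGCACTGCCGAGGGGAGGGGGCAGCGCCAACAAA
Col4a2: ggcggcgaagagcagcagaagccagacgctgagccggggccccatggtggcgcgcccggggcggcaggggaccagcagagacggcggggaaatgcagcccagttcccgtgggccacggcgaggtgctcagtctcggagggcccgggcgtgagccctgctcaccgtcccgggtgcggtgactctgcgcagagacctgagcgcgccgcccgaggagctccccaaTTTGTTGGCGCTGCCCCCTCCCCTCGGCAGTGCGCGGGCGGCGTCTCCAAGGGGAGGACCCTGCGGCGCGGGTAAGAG
The windows hold 74% and 73.7% G and C for Col4a1 and Col4a2, against a median of 52.7% over all promoters of the table. The core of the hypoxia response element reads ACGTG or GCGTG. Each window holds GCGTG once, on the printed strand, and ACGTG on neither strand. Of all genes in the promoter table, 35.2% hold GCGTG on one strand or the other, 21.8% hold ACGTG (matches inside CACGTG, the E-box, counted) and 46.7% hold at least 1 of them.

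Here and from here on, CPM of single genes are scaled by TMM factors. Sums over lists, and the values of Fos, Fosb, mt-Rnr2, Xist and Ddx3y, are without these factors. Col4a2 had 2837, 3453, 2925, 3883 and 3202 CPM in hypoxia KO libraries 1 to 5, against 1746, 1853, 2030, 1747 and 1955 CPM in normoxia KO libraries 1, 2, 4, 5 and 6. The lowest hypoxia KO value exceeded the highest normoxia KO value, and the difference was 0.80 ± 0.09 on the log2 scale (SE, adjusted p = 0.000992, edgeR). Col4a1 followed with 3851, 4763, 4043, 4657 and 4467 CPM in hypoxia KO, against 2396, 2486, 2936, 2386 and 2873 CPM in normoxia KO, a log2 fold change of 0.74 ± 0.09 (adjusted p = 0.00121, edgeR). Both genes kept their call without each of the 10 KO libraries in turn. In flox endothelium the same contrast gave 0.92 ± 0.10 for Col4a2 and 0.88 ± 0.10 for Col4a1, and the interaction term, the KO response minus the flox response, had an adjusted p of 0.993 for each (edgeR).

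Of the laminin chains, Lama4, the alpha chain made by endothelium, had 413, 606, 494, 524 and 579 CPM in hypoxia KO, against 290, 308, 257, 272 and 292 CPM in normoxia KO. Lamc1, the shared gamma chain, had 768 to 1011 CPM in hypoxia KO and 545 to 618 CPM in normoxia KO. The groups did not overlap for either chain, and the log2 fold changes were 0.88 ± 0.12 (adjusted p = 0.00183) for Lama4 and 0.62 ± 0.08 (adjusted p = 0.00137) for Lamc1 (edgeR). Lamb1, a beta chain, averaged 149 ± 51.3 CPM in hypoxia KO and 56.7 ± 6.58 CPM in normoxia KO (SD, n = 5 each), with hypoxia KO 4 lowest of its group at 73.8 CPM and still above the highest normoxia KO value of 64.9 CPM. Its log2 fold change of 1.39 ± 0.31 (adjusted p = 0.0337, edgeR) was the largest of the list. The alternative alpha and beta chains behaved otherwise: Lama5 had a log2 fold change of -0.14 (adjusted p = 0.607) and Lamb2 of -0.05 (adjusted p = 0.919).

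The nidogens, which tie the laminin and collagen IV networks together, both rose. Nid1 had 420, 631, 484, 528 and 623 CPM in hypoxia KO, against 292, 308, 255, 296 and 305 CPM in normoxia KO (log2 fold change 0.88 ± 0.10, adjusted p = 0.00108, edgeR). Nid2 averaged 276 ± 58.1 CPM in hypoxia KO and 153 ± 7.94 CPM in normoxia KO (SD, n = 5 each; log2 fold change 0.85 ± 0.12, adjusted p = 0.00324, edgeR). Neither gene's groups overlapped. Hspg2 averaged 2239 ± 231 CPM in hypoxia KO and 1474 ± 216 CPM in normoxia KO, and Sparcl1 2512 ± 165 CPM in hypoxia KO and 1663 ± 205 CPM in normoxia KO, a log2 fold change of 0.60 for each (adjusted p = 0.0208 and 0.00694, edgeR). Sparc rose by 0.51 (adjusted p = 0.0365) and Itga6 by 0.55 (adjusted p = 0.0414) on the log2 scale. Fibronectin (Fn1), a matrix glycoprotein that cells bind through integrins, averaged 12073 ± 2173 CPM in hypoxia KO and 11758 ± 1349 CPM in normoxia KO (log2 fold change 0.04, adjusted p = 0.919).

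The 2 members that fell are an inhibitor and a source of one. Timp3, a matrix-bound inhibitor of metalloproteinases, had 792, 515, 758, 498 and 626 CPM in hypoxia KO, against 1086, 1055, 1003, 1163 and 1497 CPM in normoxia KO, without overlap (log2 fold change -0.86 ± 0.20, adjusted p = 0.0414, edgeR). Col18a1, the collagen whose C-terminal fragment is endostatin, averaged 45.0 ± 15.4 CPM in hypoxia KO and 91.3 ± 26.6 CPM in normoxia KO (SD, n = 5 each; log2 fold change -1.02, adjusted p = 0.0286), and hypoxia KO 1, at 72.3 CPM, overlapped the normoxia KO range.

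**Figure D2:**
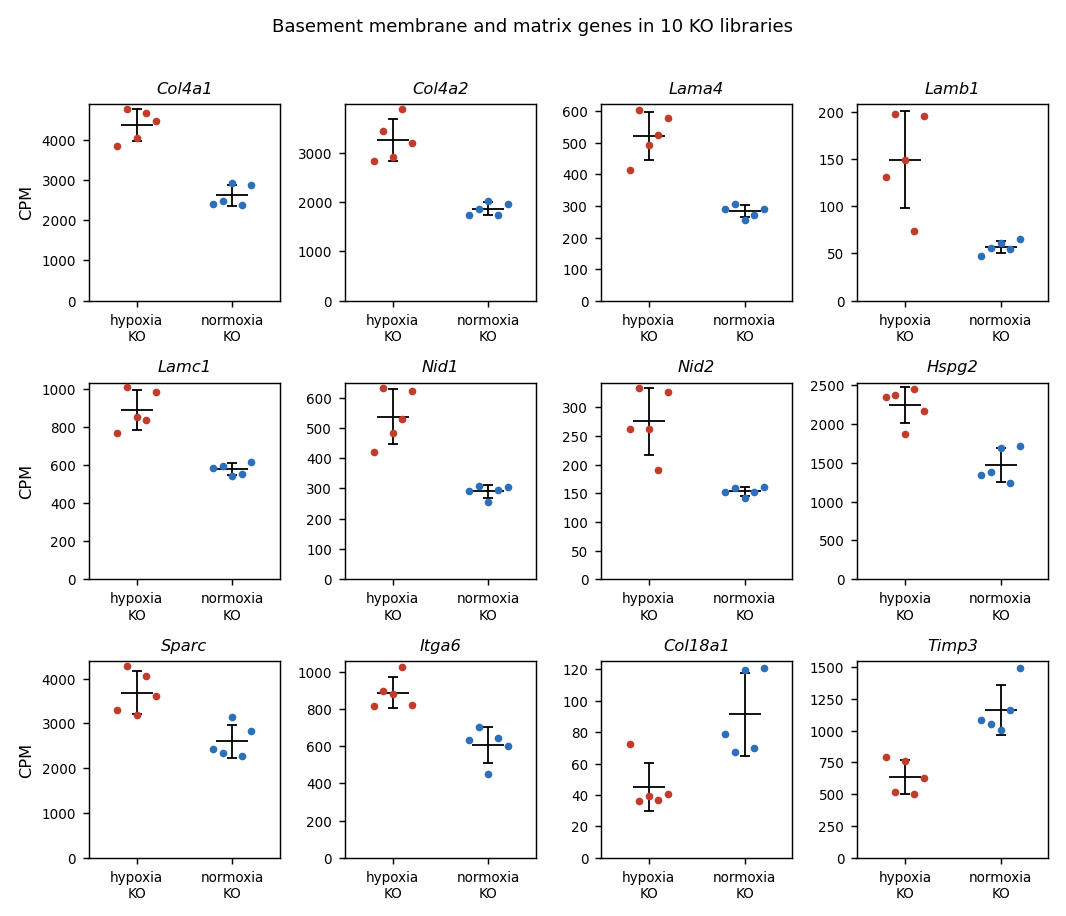
TMM-scaled CPM (vertical axes, from 0) of 12 basement membrane and matrix genes in 5 hypoxia KO libraries (red, left) and 5 normoxia KO libraries (blue, right); bars are means with SD. The red points lie wholly above the blue ones in the 10 panels from Col4a1 to Itga6, and Col18a1 and Timp3 have the lower mean in hypoxia KO.

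Enzymes that process collagen were among the other called genes. In this paragraph, Loxl2 was named as a called member of the HIF target list, and Col7a1 and Smoc2 by the rule of the 12 largest increases. Plod1 and Fkbp10 were named after their values were seen. Loxl2, a lysyl oxidase that crosslinks collagen IV, had 48.5, 74.4, 48.5, 77.7 and 73.6 CPM in hypoxia KO, against 24.6, 26.2, 28.7, 29.6 and 32.5 CPM in normoxia KO (log2 fold change 1.19 ± 0.20, adjusted p = 0.0087, edgeR). The gene model Gm21451 shares 43.3% of the Loxl2 transcript words and moved alike (log2 fold change 1.17), so the split of reads between them is uncertain. Plod1, a lysyl hydroxylase, rose by 0.37 (adjusted p = 0.0157) and Fkbp10, a collagen chaperone, by 0.79 (adjusted p = 0.0123) on the log2 scale, both without overlap. Col7a1, the collagen of anchoring fibrils, averaged 13.2 ± 4.07 CPM in hypoxia KO and 5.33 ± 0.478 CPM in normoxia KO (log2 fold change 1.31, adjusted p = 0.00799), and Smoc2, a SPARC-related matrix protein, 14.2 ± 4.99 CPM in hypoxia KO and 5.83 ± 1.13 CPM in normoxia KO (log2 fold change 1.28, adjusted p = 0.0296).

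The strength of the matrix calls varied. Col4a1, Col4a2, Lama4, Lamc1, Nid1, Nid2, Sparcl1, Loxl2 and Col7a1 were called without any single KO library. Hspg2 lost its call without normoxia KO 1, normoxia KO 5 or hypoxia KO 2 (adjusted p up to 0.0694), and Plod1 and Fkbp10 lost theirs without hypoxia KO 2 (0.0639 and 0.0511). Lamb1 passed in 2 of the 10 such fits, those without hypoxia KO 1 or hypoxia KO 4 (adjusted p up to 0.108 in the others). Itga6 and Timp3 passed in 2 (up to 0.108 and 0.136), Sparc and Smoc2 in 3 (up to 0.128 and 0.102) and Col18a1 in 4 (up to 0.0994). Leaving out normoxia KO 6, hypoxia KO 2 or hypoxia KO 5 ended the call of all 6 of these genes. Lamb1 passed in 10 of the 16 other alternatives, and lost its call with the sex signal as a covariate, alone or with the mt-Rnr2 class. The number of list members called was 7 without hypoxia KO 2 and 8 without normoxia KO 1, normoxia KO 5, normoxia KO 6 or hypoxia KO 5, and 14 among the 7 KO libraries with little mt-Rnr2. It was 6 with the replicate block over all libraries and 0 with it in the KO groups alone. Pericytes also make basement membrane. All 12 pericyte markers had a positive log2 fold change (median 0.69). None was called by edgeR, with 4 at an unadjusted p under 0.05 and 1 called by DESeq2, and the smallest adjusted p was 0.0999, for Cspg4. For 3 of them the hypoxia KO values lay wholly above the normoxia KO values, against 1.69% of all genes tested. The pericyte markers summed to 1299 to 2206 CPM in hypoxia KO and 793 to 1377 CPM in normoxia KO, and their part in the matrix result was not tested. In whole-library RNA, a change in the number of cells of a type and a change in the RNA each cell makes cannot be told apart.

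Of 22 angiogenesis and tip cell genes, 2 rose (9.09%, against 0.713% of all genes tested) and none fell, with 18 of 22 positive in sign and a median log2 fold change of 0.28. At an unadjusted p under 0.05, 7 were higher and 1 was lower, against 14.2% of all genes tested in either direction. DESeq2 called 4 higher. The list summed to 12364 to 13249 CPM in hypoxia KO and 9406 to 11214 CPM in normoxia KO, without overlap. Angpt2 (ENSMUSG00000031465), the Tie2 ligand that endothelium releases when vessels are remodelled, had 380, 465, 366, 660 and 513 CPM in hypoxia KO, against 254, 288, 172, 224 and 196 CPM in normoxia KO. The groups did not overlap, and the log2 fold change was 1.07 ± 0.20 (adjusted p = 0.0157, edgeR). Angpt1 (ENSMUSG00000022309), the Tie2 ligand that keeps vessels quiescent, moved the other way, with 11.8, 3.61, 7.83, 2.57 and 8.21 CPM in hypoxia KO, against 30.9, 25.2, 25.1, 31.2 and 43.5 CPM in normoxia KO. Its log2 fold change of -2.20 ± 0.30 (adjusted p = 0.00243, edgeR) was among the largest decreases, and it was called without each KO library in turn. The receptor Tek averaged 944 ± 120 CPM in hypoxia KO and 1076 ± 98.0 CPM in normoxia KO (log2 fold change -0.19, adjusted p = 0.481). Angpt2 lost its call without hypoxia KO 2 (adjusted p = 0.0511).

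Mcam, an adhesion molecule of growing vessels and of mural cells, averaged 230 ± 43.2 CPM in hypoxia KO and 129 ± 21.3 CPM in normoxia KO, without overlap (log2 fold change 0.84 ± 0.18, adjusted p = 0.0322, edgeR), and it passed in 2 of the 10 fits that left out a KO library, the largest adjusted p being 0.107. Apln, the tip cell peptide apelin, had 1101, 1825, 1318, 2263 and 1906 CPM in hypoxia KO, against 722, 673, 515, 602 and 554 CPM in normoxia KO. Every hypoxia KO value exceeded every normoxia KO value, yet the test did not pass (log2 fold change 1.46 ± 0.45, adjusted p = 0.133). The flox contrast gave 2.43 ± 0.52 for Apln (adjusted p = 0.0146), and the interaction did not pass either (-0.98, adjusted p = 0.993). The tip cell gene Esm1 (log2 fold change 0.78, adjusted p = 0.596), the VEGF receptors Kdr (0.16, adjusted p = 0.763) and Flt1 (0.22, adjusted p = 0.443), and the Notch ligand Dll4 (0.60, adjusted p = 0.512) did not pass. Vash1, a secreted inhibitor of angiogenesis made by endothelium, rose with little spread: it had 171 to 202 CPM in hypoxia KO, against 122 to 144 CPM in normoxia KO (log2 fold change 0.47 ± 0.08, adjusted p = 0.00694), and kept its call without each KO library. Plxnd1, a semaphorin receptor, had 555 to 725 CPM in hypoxia KO, against 398 to 493 CPM in normoxia KO (0.56, adjusted p = 0.0273). It lost its call without normoxia KO 1, normoxia KO 2, normoxia KO 5, hypoxia KO 2 or hypoxia KO 5 (up to 0.0961). Both were named after their values were seen.

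Of 20 genes of the Notch and arterial list, 6 were called lower in hypoxia KO (30%, against 0.77% of all genes tested) and none was called higher. The other 14 did not pass, 5 of the 20 had a positive sign, and the median log2 fold change was -0.23. Sema3g, an arterial semaphorin, had 264, 150, 190, 125 and 147 CPM in hypoxia KO, against 362, 360, 439, 294 and 438 CPM in normoxia KO, without overlap (log2 fold change -1.11 ± 0.20, adjusted p = 0.0121, edgeR). Bmx, a tyrosine kinase of arterial endothelium, had 25.4, 14.5, 20.0, 11.2 and 15.6 CPM in hypoxia KO, against 37.0, 37.2, 32.7, 30.0 and 42.0 CPM in normoxia KO (-1.04 ± 0.19, adjusted p = 0.0132). In both genes hypoxia KO 1 was the highest of its group.

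The other 4 arterial genes that fell were Alpl (alkaline phosphatase), Fbln5 (an elastic fibre protein), Gja5 (an arterial gap junction connexin) and Mgp (matrix Gla protein), with log2 fold changes of -1.24, -1.55, -1.26 and -1.28 and adjusted p of 0.0286, 0.0295, 0.0355 and 0.0322 (edgeR). Hypoxia KO 1 overlapped the normoxia KO range in each of these 4 genes. Both Eln and Lfng, named after their values were seen, also fell. Eln, the elastin of arterial walls, averaged 76.5 ± 42.6 CPM in hypoxia KO and 203 ± 50.2 CPM in normoxia KO (SD, n = 5 each; -1.41, adjusted p = 0.0312). Lfng, the glycosyltransferase that tunes Notch receptors, had 61.3, 49.1, 64.5, 31.7 and 49.0 CPM in hypoxia KO, against 97.6, 88.6, 111, 104 and 112 CPM in normoxia KO (-1.0 ± 0.15, adjusted p = 0.00624). The Notch receptors Notch1 (0.27, adjusted p = 0.336) and Notch4 (0.07, adjusted p = 0.869) and the Notch ligand Jag1 (-0.13, adjusted p = 0.734) did not pass. Nor did Hey1 (-0.04, adjusted p = 0.947) or the ephrin Efnb2 (0.17, adjusted p = 0.798).

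The arterial calls leaned on single libraries. Lfng kept its call without each KO library, while Sema3g and Bmx lost theirs without hypoxia KO 2 (adjusted p = 0.052 and 0.0564). Eln passed in 3 of the 10 fits (up to 0.101), Alpl and Mgp in 3, Gja5 in 2 and Fbln5 in 4 (up to 0.118), and each of these 5 lost its call without normoxia KO 1, normoxia KO 4, normoxia KO 6, hypoxia KO 2 or hypoxia KO 5. The 6 calls of the list became 0 without hypoxia KO 2, 2 without normoxia KO 1, normoxia KO 4, normoxia KO 6 or hypoxia KO 5, 3 without hypoxia KO 3 or hypoxia KO 4, and 8 without hypoxia KO 1. They were 1 when only the KO groups were fitted, 2 with no filter on low counts, 3 without normoxia KO 4 and normoxia flox 4, 1 with the replicate block over all libraries, 0 with it in the KO groups alone, and 9 with DESeq2. Smooth muscle markers, which travel with arterial fragments, summed to 320 to 579 CPM in hypoxia KO and 370 to 420 CPM in normoxia KO, none of 11 was called by edgeR or DESeq2 (1 at an unadjusted p under 0.05), and their median log2 fold change was 0.11. Of the 14 venous genes, 2 fell (0.77% of all genes tested were called lower) and none rose. These were the interleukin 1 receptor Il1r1, with 85.0 to 128 CPM in hypoxia KO and 152 to 248 CPM in normoxia KO (-1.04, adjusted p = 0.018), and the amino acid transporter Slc38a5 (-0.91, adjusted p = 0.032). Both lost their call without hypoxia KO 2, hypoxia KO 5 or normoxia KO 6, Il1r1 also without normoxia KO 5 (up to 0.0669), and Slc38a5 also without normoxia KO 1, normoxia KO 4, hypoxia KO 3 or hypoxia KO 4 (up to 0.0894).

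**Figure D3:**
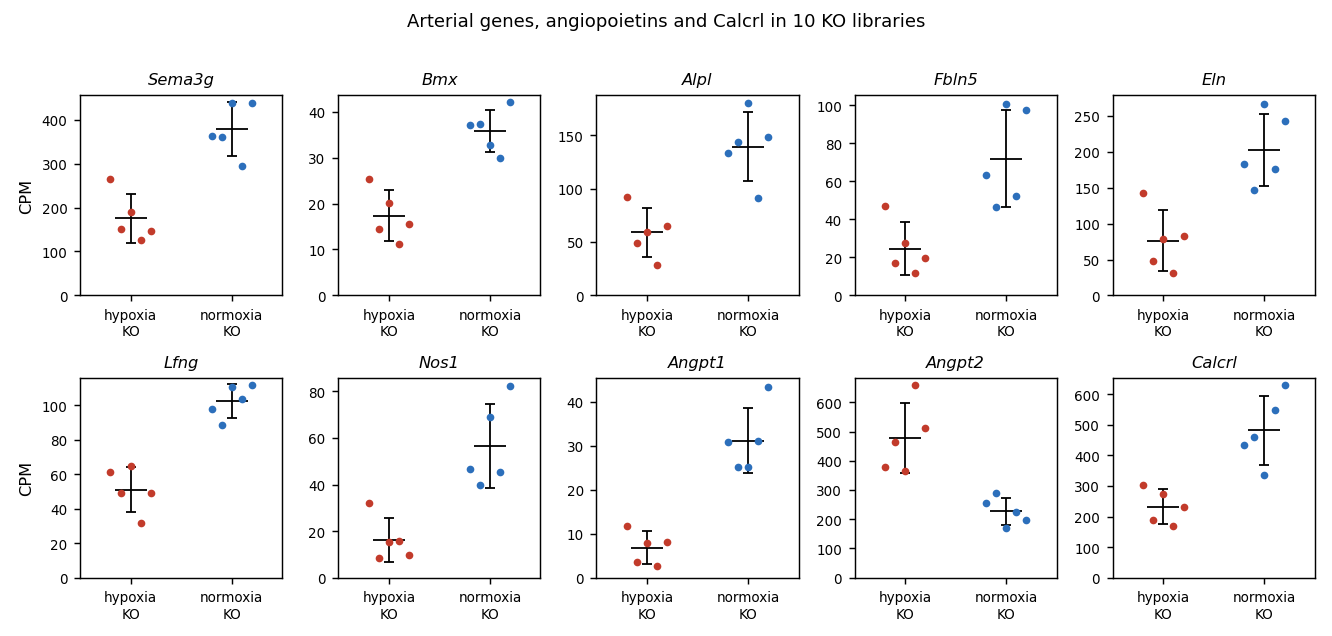
TMM-scaled CPM (vertical axes, from 0) of 10 genes in 5 hypoxia KO libraries (red, left) and 5 normoxia KO libraries (blue, right); bars are means with SD. The hypoxia KO mean is lower in 9 panels and higher for Angpt2.

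The steepest decreases reached beyond arterial genes. Cdh1, the epithelial cadherin, had 4.42, 0.754, 3.33, 0.436 and 3.42 CPM in hypoxia KO, against 14.6, 8.12, 16.7, 16.8 and 19.1 CPM in normoxia KO (log2 fold change -2.61 ± 0.48, adjusted p = 0.0149, edgeR). Lhx6, a LIM homeobox factor, had 23.4, 9.64, 20.0, 4.27 and 13.2 CPM in hypoxia KO, against 53.1, 31.8, 64.4, 57.5 and 87.2 CPM in normoxia KO (-2.06 ± 0.36, adjusted p = 0.0108). Nos1, the neuronal nitric oxide synthase, had 32.1, 8.51, 15.3, 15.9 and 9.85 CPM in hypoxia KO, against 46.6, 39.6, 68.9, 45.3 and 82.2 CPM in normoxia KO (-1.79 ± 0.31, adjusted p = 0.00968). The groups did not overlap for these genes. Without normoxia KO 4, the library with neuronal RNA, and normoxia flox 4 the log2 fold changes of Cdh1, Lhx6 and Nos1 were -2.56, -2.01 and -1.70.

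The rest of the 12 largest decreases, chosen by size among called genes that averaged log2 CPM 1 or more and whose groups did not overlap, were Ms4a8a (-2.21), the Wnt modulator Dkk2 (-1.92), the proprotein convertase Pcsk5 (-1.91), the inositol phosphate kinase Ip6k3 (-1.83), the integrin subunit Itga9 (-1.72), Ifitm10 (-1.65), the metalloproteinase Adamts8 (-1.59) and Pitpnm3 (-1.57), besides Angpt1, Cdh1, Lhx6 and Nos1. Ms4a8a, Angpt1, Nos1, Ifitm10 and Pitpnm3 kept the call without each KO library. Cdh1, Lhx6 and Adamts8 lost it without hypoxia KO 2 (adjusted p = 0.0525, 0.0508 and 0.0508), Dkk2 without hypoxia KO 2 or normoxia KO 6, Pcsk5 and Ip6k3 without hypoxia KO 2, hypoxia KO 5 or normoxia KO 6 (up to 0.0654 for these 3), and Itga9 passed only without hypoxia KO 1 or hypoxia KO 4 (up to 0.102).

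Among genes with smaller but steadier decreases, named after their values were seen, Ptprj, a receptor tyrosine phosphatase of endothelium, had the smallest p. It had 151, 110, 149, 106 and 130 CPM in hypoxia KO, against 266, 247, 231, 306 and 286 CPM in normoxia KO (log2 fold change -1.05 ± 0.12, adjusted p = 0.000992, edgeR). The gene model Gm13768 also fell (-1.28, adjusted p = 0.00136), and whether it shares reads with Ptprj was not tested. Calcrl, the receptor component for adrenomedullin and calcitonin gene-related peptide, had 305, 187, 272, 169 and 230 CPM in hypoxia KO, against 432, 460, 335, 549 and 631 CPM in normoxia KO (-1.05 ± 0.18, adjusted p = 0.00801). Plcg2, a phospholipase C, averaged 29.3 ± 8.81 CPM in hypoxia KO and 63.6 ± 10.6 CPM in normoxia KO (-1.12, adjusted p = 0.00759), and Sdc1, the heparan sulfate proteoglycan syndecan, 5.70 ± 1.15 CPM in hypoxia KO and 13.6 ± 3.58 CPM in normoxia KO (-1.26, adjusted p = 0.00694). All 4 genes were free of overlap and kept the call without each KO library.

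The 12 largest increases by the same rule mixed matrix, signalling and channel genes. Besides Lamb1, Col7a1 and Smoc2 they were the TNF family ligand Tnfsf15 (1.78), the lysophospholipid receptor Gpr55 (1.56), the cytoskeletal linker Gas2l3 (1.47), the NADPH oxidase Nox4 (1.43), the protease inhibitor Tfpi2 (1.35), the ubiquitin ligase Rnf183 (1.25), the potassium channel subunit Kcne3 (1.24), the secreted glycoprotein Stc2 (1.22) and the homeobox factor Hlx (1.22). Nox4 had 7.32, 12.2, 10.5, 7.22 and 11.3 CPM in hypoxia KO, against 4.28, 4.71, 2.17, 2.83 and 4.03 CPM in normoxia KO (adjusted p = 0.0121, edgeR). Hlx had 33.8, 41.3, 33.4, 34.5 and 40.0 CPM in hypoxia KO, against 18.1, 20.5, 10.4, 18.6 and 10.8 CPM in normoxia KO (adjusted p = 0.0101). Gas2l3, Col7a1, Kcne3, Stc2 and Hlx kept the call without each KO library, Nox4 lost it without hypoxia KO 2 (adjusted p = 0.0511), and Rnf183 without hypoxia KO 2 or normoxia KO 6 (up to 0.0762). Tnfsf15 passed in 2 and Gpr55 in 1 of these 10 fits (adjusted p up to 0.118 and 0.127), and Tfpi2 in 2 (up to 0.0821). Each of these 3 lost its call without any 1 of the 5 normoxia KO libraries and without hypoxia KO 2, hypoxia KO 4 or hypoxia KO 5.

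Other genes that rose and kept the call without each KO library, named after their values were seen, were the kinase Nek6 (0.95 ± 0.12, adjusted p = 0.00145), the cholesterol exporter Abca1 (0.85 ± 0.15, adjusted p = 0.00992), the homeobox factor Meox1 (0.81 ± 0.13, adjusted p = 0.00624), the deacetylase Hdac9 (0.72 ± 0.12, adjusted p = 0.00846) and the actin-binding peptide Tmsb10 (0.60 ± 0.10, adjusted p = 0.00694, edgeR). Abca1 had 235 to 410 CPM in hypoxia KO and 144 to 224 CPM in normoxia KO, and Meox1 82.2 to 116 CPM in hypoxia KO and 52.2 to 66.3 CPM in normoxia KO, each without overlap.

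Of 33 tested HIF target genes, 2 rose after 7 days (6.06%, against 0.713% of all genes tested) and none fell (median log2 fold change 0.14, against -0.03 for all genes tested). At an unadjusted p under 0.05, 6 were higher and 1 was lower, against 14.2% of all genes tested in either direction. DESeq2 called 2 higher and 1 lower. The 2 were Stc2, with 9.69, 11.1, 7.74, 11.7 and 10.1 CPM in hypoxia KO, against 3.92, 4.26, 4.25, 4.32 and 4.73 CPM in normoxia KO (1.22 ± 0.19, adjusted p = 0.0064, edgeR), and Loxl2, described above. Vegfa, the HIF-induced growth factor, had 19.8, 38.6, 37.8, 43.8 and 40.9 CPM in hypoxia KO, against 33.3, 34.4, 23.2, 39.3 and 22.1 CPM in normoxia KO, with overlapping groups (0.25 ± 0.39, adjusted p = 0.815). Slc2a1, the endothelial glucose transporter, averaged 4585 ± 779 CPM in hypoxia KO and 4557 ± 332 CPM in normoxia KO (0.01 ± 0.13, adjusted p = 0.986).

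Metabolic targets gave small estimates that did not pass: lactate dehydrogenase Ldha (0.17 ± 0.08, adjusted p = 0.352), pyruvate dehydrogenase kinase Pdk1 (0.24 ± 0.10, adjusted p = 0.289) and the mitophagy receptor Bnip3 (0.31 ± 0.15, adjusted p = 0.365; it shares sequence with gene models, 17.7% of its words with Gm16439). In flox endothelium Ldha (0.47, adjusted p = 0.00692) and Pdk1 (0.56, adjusted p = 0.00759) did pass, but the interaction did not (adjusted p = 0.776 and 0.883), so the responses were not shown to differ. The HIF subunits Hif1a (0.27, adjusted p = 0.293) and Epas1 (-0.07, adjusted p = 0.841), and the oxygen sensors Egln1 (0.04, adjusted p = 0.811) and Egln3 (0.16, adjusted p = 0.885), did not pass. None of 17 glycolysis genes was called (median 0.14). None of the 25 nuclear respiratory chain genes was called (median -0.15, 24 of 25 with a negative sign), nor any of the 13 mitochondrially encoded ones (median -0.31, all 13 negative). DESeq2 called none of these 3 lists either, and edgeR's unadjusted p was under 0.05 for 2 of the glycolysis, 1 of the nuclear and 0 of the mitochondrially encoded genes. The part of the mt-Rnr2 difference between libraries in these values was not tested.

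**Figure D4:**
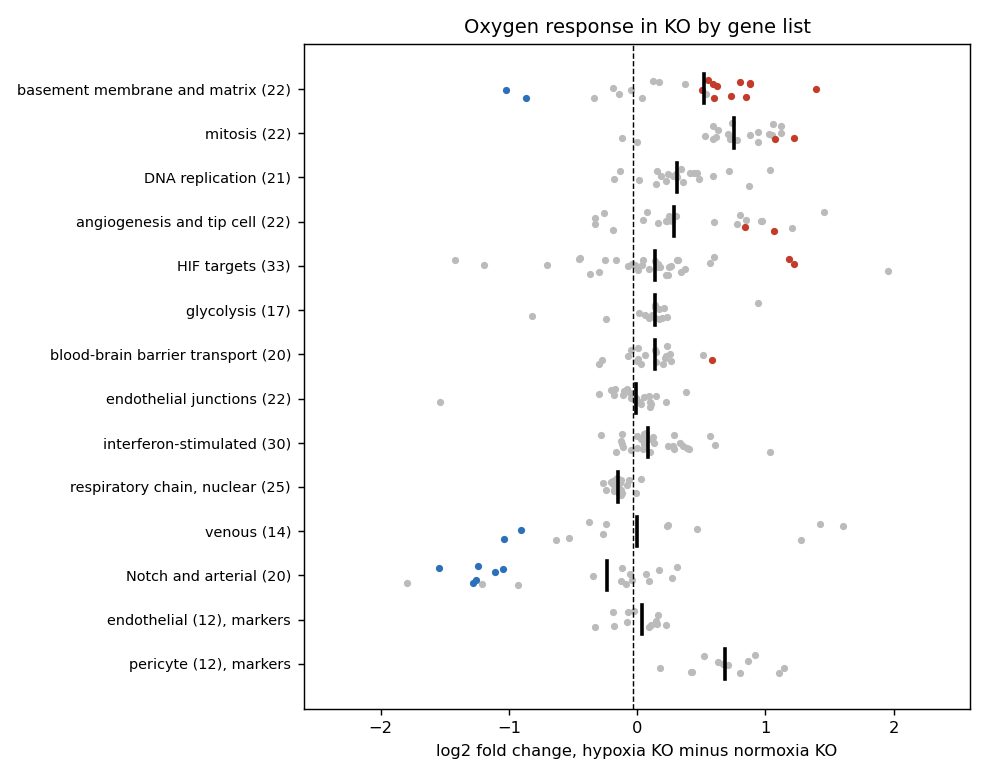
Log2 fold changes (hypoxia KO minus normoxia KO, horizontal axis) of the tested members of 14 gene lists, with the number tested in brackets; red and blue points are members called higher and lower in hypoxia KO, grey points did not pass, black bars are list medians and the dashed line is the median of all genes tested, -0.03. The basement membrane list holds 11 red points and the arterial list 6 blue ones, and 3 members lie outside the axis of -2.6 to 2.6.

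Of 22 mitosis genes, 2 rose (9.09%, against 0.713% of all genes tested) and none fell, and 21 had a positive sign (median log2 fold change 0.76). Cdk1, the mitotic kinase, had 7.65, 15.6, 6.83, 10.8 and 15 CPM in hypoxia KO, against 5.04, 3.9, 4.75, 5.43 and 7.33 CPM in normoxia KO (1.07 ± 0.25, adjusted p = 0.0426, edgeR). Bub1, a spindle checkpoint kinase, averaged 4.75 ± 1.98 CPM in hypoxia KO and 2.01 ± 0.402 CPM in normoxia KO (SD, n = 5 each; 1.23 ± 0.27, adjusted p = 0.0345). In both genes hypoxia KO 3 overlapped the normoxia KO range or reached its edge. The proliferation marker Mki67 had 35.2, 92.9, 38.8, 60.5 and 74.9 CPM in hypoxia KO, against 35.1, 23.1, 13.1, 30.6 and 42.9 CPM in normoxia KO (1.06 ± 0.38, adjusted p = 0.216). Hypoxia KO 1 and 3 were low and hypoxia KO 2 and 5 high in all 3 genes. The number of mitosis genes called was 0 without normoxia KO 1, 2, 4 or 5 or without hypoxia KO 2, 4 or 5, 1 without normoxia KO 6, 4 without hypoxia KO 1 and 5 without hypoxia KO 3. It was 0 with the legacy quasi-likelihood fit, when only the KO groups were fitted, and with the replicate block. At an unadjusted p under 0.05, 17 of the 22 were higher, against 14.2% of all genes tested in either direction, and DESeq2 called 8. None of 21 DNA replication genes was called by edgeR (median 0.31), with 12 higher at an unadjusted p under 0.05 and 3 called by DESeq2. The G1 cyclin Ccnd1 rose, with 394, 424, 327, 675 and 397 CPM in hypoxia KO, against 246, 251, 241, 222 and 259 CPM in normoxia KO (0.86 ± 0.17, adjusted p = 0.0164), and lost its call without hypoxia KO 2 (adjusted p = 0.0511).

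The KO response was then set against the flox response. Over all genes, 77 of 17531 (0.439%) had a called interaction between oxygen and genotype, all 77 with a smaller or more negative change in KO than in flox, and none the other way. At an unadjusted p under 0.05 there were 961 (5.48%), and DESeq2 called 20 higher and 125 lower. Of the 22 mitosis genes, 17 had a called interaction (median -2.47), and 20 rose with hypoxia in flox endothelium (median 3.45). Mki67 had 35.2 to 92.9 CPM in hypoxia KO and 13.1 to 42.9 CPM in normoxia KO, and 76.8 to 148 CPM in hypoxia flox and 2.21 to 8.36 CPM in normoxia flox. The interaction for Mki67 was -3.56 (adjusted p = 0.013, edgeR). Averaged over the list, log2 CPM was 3.40 ± 0.518 in hypoxia KO, 2.65 ± 0.396 in normoxia KO, 3.88 ± 0.274 in hypoxia flox and 0.700 ± 0.435 in normoxia flox (SD over libraries). The hypoxia groups overlapped, and every normoxia KO library lay above every normoxia flox library.

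The 5 largest interactions were those of Aurkb (-4.51, adjusted p = 0.00953), Pimreg (-4.40, adjusted p = 0.000628), Depdc1a (-3.62, adjusted p = 0.0232; 64.9% of its words are shared with Gm5596), Birc5 (-3.59, adjusted p = 0.043) and Ncapg (-3.58, adjusted p = 0.00474), all of them mitotic genes. Their KO responses were 1.12, 0.58, 1.07, 0.74 and 0.90, none called. Mitosis genes could be low in normoxia flox, where Bub1 averaged 0.358 CPM and Cdk1 0.896 CPM. The size of an interaction in such genes rests on few reads there. Without the libraries above 5000 CPM of mt-Rnr2 these 5 interactions were -4.69, -4.72, -4.05, -5.04 and -3.49 with adjusted p of 0.26, 0.062, 0.243, 0.0931 and 0.151, and 12 interactions were called in all. The total of 77 was 28 without normoxia flox 1, 30 without normoxia flox 2, 33 without normoxia KO 6, 34 without hypoxia flox 2, 36 without hypoxia flox 3, 38 without normoxia flox 3, 44 without hypoxia flox 4 or hypoxia flox 5, and 50 without normoxia KO 5. Fosb, an immediate early gene that also marks how libraries stood apart, had medians of 5261 CPM in hypoxia KO, 6008 CPM in normoxia KO, 564 CPM in hypoxia flox and 1005 CPM in normoxia flox. With the mean log2 CPM of the immediate early genes in the model, 97 interactions were called (edgeR), 74 of them among the 77. The part of Fosb itself was not tested.

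**Figure D5:**
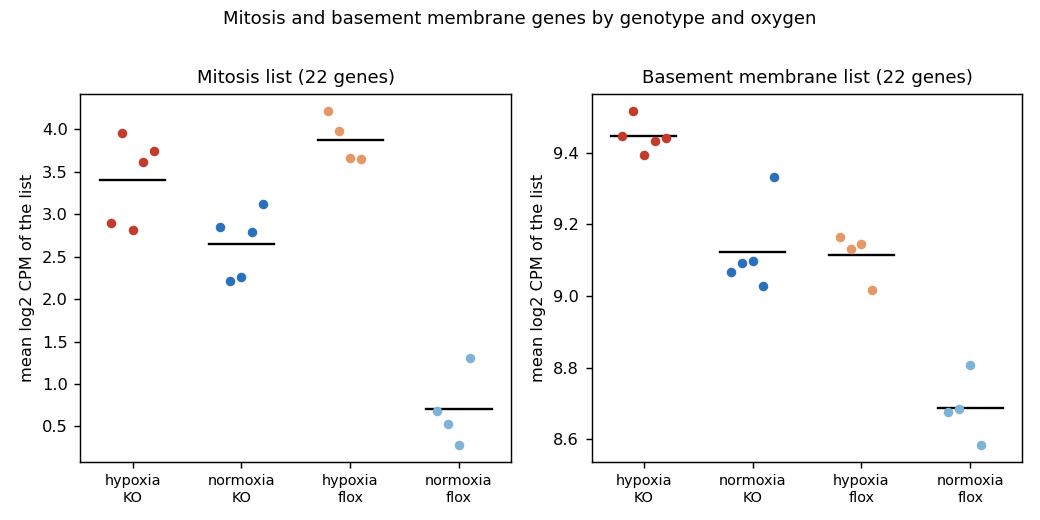
Mean log2 CPM of the 22 mitosis genes (left panel) and the 22 basement membrane genes (right panel) in each library, with group means as bars (vertical axes do not start at 0). The mitosis mean is 3.40 in hypoxia KO and 2.65 in normoxia KO, and 3.88 in hypoxia flox and 0.700 in normoxia flox; the basement membrane mean is 9.45 in hypoxia KO and 9.12 in normoxia KO, and 9.11 in hypoxia flox and 8.69 in normoxia flox.

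Most genes called in KO moved the same way in flox endothelium. The KO and flox contrasts share no library. Hypoxia changed 492 genes in flox endothelium (2.81%), 411 higher (2.34%) and 81 lower (0.462%). Sex signal ran with oxygen in this contrast. All 4 hypoxia flox libraries held 146 to 165 CPM of Ddx3y with Xist under 2 CPM. In normoxia flox, library 1 held Ddx3y with Xist under 1 CPM, library 2 held Xist alone, and libraries 3 and 4 held both (Xist 506 and 249 CPM, Ddx3y 78.4 and 84.4 CPM). With the sex signal in the model, 360 genes were called in flox and 72 interactions. Of the 260 genes called in KO, 244 (93.8%) had the same sign in flox, against 66.5% of all genes tested. In both contrasts 96 genes were called in the same direction, which is 36.9% of the KO calls and 19.5% of the flox calls, and no gene was called in opposite directions. The genes that rose in KO had a median log2 fold change of 0.76 in KO and 0.71 in flox, and those that fell had -0.97 in KO and -0.45 in flox. All were chosen by their KO test, which favours large KO values, so these medians cannot show a weaker response in flox. Across all genes tested, which are not independent, the log2 fold changes of the 2 genotypes had a Pearson r of 0.774, and 0.357 without normoxia KO 4 and normoxia flox 4, which both held neuronal RNA.

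The interaction contains the KO contrast by which the KO calls were chosen, so its share among them can be raised by that choice alone. Of the 260 genes called in KO, 9 (3.46%) also had a called interaction, against 0.439% of all genes tested. 5 of them rose less in KO than in flox: Cdk1, Bub1, the secreted C1qtnf6 (0.74 in KO and 1.97 in flox), the rhomboid protease Rhbdl2 (0.93 in KO and 1.99 in flox) and Nlrc3 (0.61 in KO and 1.87 in flox). The other 4 fell in KO and had a positive, uncalled estimate in flox: Calcrl (-1.05 in KO and 0.26 in flox, interaction adjusted p = 0.0363, edgeR), Klhl4 (-0.58 and 0.34, adjusted p = 0.00545), Tmem45a (-1.08 and 0.51, adjusted p = 0.0277) and the hyaluronan receptor Lyve1 (-1.16 and 0.93, adjusted p = 0.0469). In KO, Calcrl, Klhl4 and Rhbdl2 kept the call without each KO library, and Tmem45a lost it without hypoxia KO 2 (0.0564). Calcrl averaged 233 ± 56.6 CPM in hypoxia KO (n = 5), 481 ± 113 CPM in normoxia KO (n = 5), 229 ± 10.2 CPM in hypoxia flox (n = 4) and 192 ± 32.2 CPM in normoxia flox (n = 4, SD).

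Barrier, clotting and inflammatory lists held few calls. Of 20 blood-brain barrier transport genes only the reelin receptor Lrp8 rose (0.59, adjusted p = 0.0453, edgeR). Over all genes tested, 0.713% were called higher. None of 22 junction genes was called by edgeR (median -0.01). At an unadjusted p under 0.05, 2 were higher and 3 lower, against 14.2% of all genes in either direction, and DESeq2 called 1. The tight junction claudin Cldn5 had a log2 fold change of -0.18 (adjusted p = 0.496), the lipid transporter Mfsd2a 0.23 (adjusted p = 0.542) and the fenestral diaphragm gene Plvap -1.53 (adjusted p = 0.277), with 2.96 to 12.4 CPM in hypoxia KO and 12.4 to 30.4 CPM in normoxia KO. Thbd, thrombomodulin, an anticoagulant receptor, had 1084, 1049, 1120, 905 and 1030 CPM in hypoxia KO, against 1402, 1429, 1445, 1565 and 1700 CPM in normoxia KO, without overlap (-0.54 ± 0.12, adjusted p = 0.0322, edgeR). Its call held in 3 of the 10 fits that left out a KO library, those without normoxia KO 2, hypoxia KO 1 or hypoxia KO 3 (adjusted p up to 0.101 in the others). Klf2 and Klf4, factors that rise when CCM proteins are lost, had log2 fold changes of 0.23 (adjusted p = 0.781) and 0.09 (adjusted p = 0.96), and none of the 16 genes of the CCM complex and KLF list was called by edgeR or DESeq2 or reached an unadjusted p under 0.05.

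Of 23 inflammation and leukocyte adhesion genes, the chemokine Ccl5 rose (0.713% of all genes tested were called higher) and none fell (median 0.61). Ccl5 had 1.02, 3.83, 2.92, 13.0 and 2.91 CPM in hypoxia KO, against 1.43, 1.08, 0.764, 1.75 and 0.539 CPM in normoxia KO (2.11 ± 0.49, adjusted p = 0.035, edgeR). In this gene hypoxia KO 1 overlapped the normoxia KO range and hypoxia KO 4 was highest. All 8 MHC class II genes had a positive sign (median 1.75) and none was called by edgeR, with 6 at an unadjusted p under 0.05 and 1 called by DESeq2. Cd74, the class II chaperone, had 299 CPM in hypoxia KO 4 and 13.7 to 43.3 CPM in the other hypoxia KO libraries, against 10.7 to 28.5 CPM in normoxia KO (2.06, adjusted p = 0.2). In the same library the neutrophil markers summed to 101 CPM, against 1.6 to 3.43 CPM in normoxia KO, and the neutrophil markers Ly6g, Mpo, Elane and Camp were under 1 CPM in every KO library. Lymphocyte markers, whose cells also make Ccl5, summed to 24.5 to 59.2 CPM in hypoxia KO and 15 to 46.3 CPM in normoxia KO. Of 12 tested, 11 had a positive sign (median 0.61), none was called by edgeR or DESeq2, and 3 were higher at an unadjusted p under 0.05. The part of neutrophil and lymphocyte RNA in the Ccl5 and MHC class II values was not tested. The adhesion genes Vcam1 (-0.27, adjusted p = 0.747) and Icam1 (0.24, adjusted p = 0.925) and the chemokine Cx3cl1 (0.01, adjusted p = 0.991) did not pass, and Icam1 was lowest, at 114 to 132 CPM against 681 to 1037 CPM elsewhere, in the 3 KO libraries with high mt-Rnr2. None of 30 interferon-stimulated genes (median 0.08) and none of 15 MHC class I genes (median 0.18) was called by edgeR or DESeq2, with 2 and 0 at an unadjusted p under 0.05. The kinase Ikbke fell by 0.86 on the log2 scale (adjusted p = 0.0426), and the antioxidant enzyme Nqo1 fell by 0.73 (adjusted p = 0.0448), while the ferrireductase Steap3 rose by 0.67 (adjusted p = 0.0279). Ikbke, Nqo1, Steap3, Lrp8 and Ccl5 passed in 2 or 3 of the 10 fits that left out a KO library (adjusted p up to 0.146). All 5 lost the call without normoxia KO 1, normoxia KO 4, normoxia KO 5, hypoxia KO 2 or hypoxia KO 5. Lrp8 also lost it with the sex signal as a covariate.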

How the data were processed

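RNA was extracted with TRIzol from brain endothelial cells (RNA integrity number above 8), and libraries were made from polyadenylated RNA with a stranded kit, per the labels' protocols. The authors deposited whole-number read counts per Ensembl gene for 18 libraries. HISAT2, edgeR and the mouse build GRCm39 are named, without versions, per the submitters' processing notes. The strand setting of the counting is not given in the sources used here, so genes that overlap or run antisense to another gene are uncertain. A second deposited table of RPKM values was not used. Symbols were matched for 91.3% of the 57010 identifiers, and genes without a symbol held 0.723% of the counts.

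All 18 libraries entered 1 model of 4 groups in edgeR 4.0.16 (R 4.3.3, limma 3.58.1): filterByExpr (17531 genes kept), TMM scaling, a robust quasi-likelihood fit and Benjamini-Hochberg adjustment over all genes tested, with calls at an adjusted p under 0.05. Contrasts were hypoxia minus normoxia in KO, the same in flox, and their difference (the interaction). Every adjusted p comes from this fit unless left-out libraries, another setting or DESeq2 (1.42.0) is named. Fits without some libraries repeated the filter, scaling and adjustment. Each SE is the absolute log2 change over the square root of F. The scripts were tested on simulated counts. Named genes were a fixed set of 24, the 12 largest called changes each way among genes averaging log2 CPM 1 or more, with no overlap and a proper name, up to 4 called members of each list, and the 5 largest interactions. Further genes were chosen after their values were seen. The members and lists were chosen with earlier results of these data known. A search for ACGTG over the called genes was void, since fewer than 80% of them have a promoter in the RefSeq table. Alternatives tried were other scaling, filters, tool and fit, fewer libraries, a replicate block and covariates. Intervals and tests cover the spread between libraries, and read duplicates were not assessed.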

Additional observations from a re-analysis of the deposited data

Results flagged for a closer look

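Among 146 groups of 5 libraries checked for a library far from the other 4 of its group (Dixon's test), 8 were found, and chance gives about 1 in 20. Hypoxia KO 1 was the distant library in 4 of them: Vegfa was lowest there at 19.8 CPM (next 37.8), Klf2 at 856 CPM (next 1712) and Klf4 at 872 CPM (next 2888), and Ip6k3 was highest at 3.12 CPM (next 1.43). This library is also 1 of the 3 with high mt-Rnr2, 17873 CPM, and low Fos, 492 CPM. Hypoxia KO 4 was highest for the chemokine Ccl5 at 13.0 CPM (next 3.83) and for the cyclin Ccnd1 at 675 CPM (next 424). Normoxia KO 4 was highest for Ldha at 413 CPM (next 385), and normoxia KO 6 for Ms4a8a at 9.86 CPM (next 5.36).

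For 7 of the named genes the oxygen response differed between genotypes by the interaction test. The KO response minus the flox response, on the log2 scale, was -3.22 for Bub1 and -2.81 for Cdk1 (both adjusted p = 0.00545, edgeR), which rose in both genotypes. It was -4.51 for Aurkb, -4.40 for Pimreg, -3.62 for Depdc1a, -3.59 for Birc5 and -3.58 for Ncapg, which were called in flox and not in KO. Of these 5, Aurkb, Pimreg and Ncapg kept the interaction call without each of the 10 KO libraries. Depdc1a lost it without normoxia KO 6 (adjusted p = 0.0612), and Birc5 kept it in 3 of the 10 (up to 0.104).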

How the results depend on the processing

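The number of genes called for the oxygen response in KO, 260, fell to 107 when only the KO libraries were fitted and was 617 with DESeq2, 499 with an immediate early score in the model, 422 without the libraries above 5000 CPM of mt-Rnr2, 392 with that class as a term and 529 with the class and the sex signal as terms. Leaving out single libraries gave 53 to 523 in KO, 332 to 619 in flox and 28 to 98 interactions. Other scaling, filters, the legacy fit, the sex or neuron terms and the exclusion of normoxia KO 4 with normoxia flox 4 or with hypoxia KO 1 left the KO count within 1.5 times, at 176 to 383. In flox, 492 became 833 with DESeq2 and 893 with the immediate early score. The 77 interactions became 145 with DESeq2 and 97 with the immediate early score (74 of them shared). They were 12 without the libraries above 5000 CPM of mt-Rnr2 (6 of them shared) and 49 without hypoxia KO 1 and normoxia KO 4. The cause of these shifts was not tested. The 4 settings with mt-Rnr2 or with hypoxia KO 1 and normoxia KO 4 left out were chosen after seeing the data. Whether equal replicate numbers mark paired libraries was not settled. The deviations of same-numbered KO libraries from their group means correlated at -0.491, 0.149, -0.0529 and 0.402, and only KO 5 correlated best with its own number. Hypoxia KO 1 correlated best with normoxia KO 6, and both are high in mt-Rnr2, so these values cannot exclude a shared batch. With the replicate block, 43 genes were called in KO and 3 interactions over all libraries, and 0 in KO and 0 in flox when only the groups compared were fitted (edgeR, 1495 and 1267 at an unadjusted p under 0.05). Over the 73 named genes, no KO value called in the reported or the alternative fit changed sign, and 350 of the values lost the call, against 2124 on the same side of the threshold and 7 that gained it. The 2124 include values of the 27 named genes without a KO call, of which 25 were never called. Of the 46 named genes with a KO call, 15 kept it without each of the 10 KO libraries in turn, and 0 kept it in every alternative. Genes near 1 CPM, such as Ms4a8a and Ccl5, rest on few reads per library.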

Other observations

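A few further genes with low or moderate levels, chosen after their values were seen, moved in hypoxia KO. Plekho1, a pleckstrin homology protein, had 25.6, 21.1, 21.8, 22.3 and 18.3 CPM in hypoxia KO, against 32.3, 31.2, 37.1, 41.9 and 43.1 CPM in normoxia KO (log2 fold change -0.77 ± 0.10, adjusted p = 0.00183, edgeR). Pthlh, the parathyroid hormone-related peptide, averaged 1.60 ± 0.639 CPM in hypoxia KO and 4.63 ± 0.806 CPM in normoxia KO (SD, n = 5 each; -1.53, adjusted p = 0.00799, edgeR). The chemerin receptor Cmklr1 had 26.8 to 37.0 CPM in hypoxia KO, against 17.2 to 19.1 CPM in normoxia KO (0.83, adjusted p = 0.0108, edgeR), while the flox estimate was -0.17 and the interaction did not pass (1.00, adjusted p = 0.0689). The potassium channel Kcnj15 had 5.23 to 7.42 CPM in hypoxia KO, against 2.38 to 3.20 CPM in normoxia KO (1.13, adjusted p = 0.00385, edgeR). All 4 kept the call without each KO library.

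A few more called genes with lower values in hypoxia KO, also chosen after their values were seen and from no fixed list, are best known from epithelia; epithelial genes as a group were not counted. The membrane serine protease St14 averaged 5.75 ± 2.38 CPM in hypoxia KO and 13.1 ± 2.48 CPM in normoxia KO (-1.19, adjusted p = 0.0148, edgeR; lost without hypoxia KO 2, 0.0619). The desmosomal plakins Ppl and Dsp gave -1.41 (adjusted p = 0.0208) and -1.13 (adjusted p = 0.0423, edgeR). Both lost the call without hypoxia KO 2, hypoxia KO 5 or normoxia KO 6, Ppl also without normoxia KO 4 (up to 0.0677), and Dsp also without normoxia KO 1, normoxia KO 2, normoxia KO 5 or hypoxia KO 4 (up to 0.136). Choroid plexus and ependyma markers, 9 tested, had a median log2 fold change of -0.16 with none called (edgeR and DESeq2, 1 at an unadjusted p under 0.05), and their part was not tested. Of 20 Wnt genes, Dkk2 fell (0.77% of all genes tested were called lower). The others, Axin2 and Lef1 among them (-0.02 and 0.12), did not pass. None of 22 BMP and TGF-beta genes was called by edgeR (median -0.01), and 5 were called by DESeq2. At an unadjusted p under 0.05, 4 were higher and 3 lower, against 14.2% of all genes in either direction.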
